A study of Mus musculus with 32 samples.

Results

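Genes of the G2/M transition and mitosis were followed across 4 B-lineage populations of mouse spleen and 2 genotypes. The 53 genes are those rows of a table of 53465 genes whose symbol stands in a fixed list of cell cycle regulators and mitotic machinery, and all 53 were found, each under 1 row. By role they fall into 9 regulators of mitotic entry, 4 subunits of the chromosomal passenger complex, 9 genes of the spindle checkpoint and anaphase, 7 kinetochore genes, 12 spindle motors and microtubule proteins, 7 genes of chromosome structure and 5 genes of cytokinesis. The choice used no measured value, but it was made with earlier results of these data known.

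The study asked how activated PI3K-delta signalling acts on humoral immunity. In all, 32 RNA-seq libraries of 500 sorted cells each formed 8 groups of 4, namely plasma cells (PC), dark zone (DZ) and light zone (LZ) germinal centre B cells and naive B cells, each from AID-cre aPIK3CD mice and from AID-cre WT mice. All mice were C57BL/6, 12 weeks old, and were taken 14 days after intraperitoneal NP-CGG in alum, a hapten on a carrier protein that calls up germinal centres. WT mice carried the cre too, and how far it had acted in the naive B cells was not measured. The labels do not state whether animals were pooled, and the p-values measure the spread between these libraries. The 4 libraries titled aPIK3CD replicate 1, 1 in each population, carry WT in their genotype field; they were kept under their title, and results were also computed with them left out or counted as WT.

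As background, entry into mitosis is driven by CDK1 bound to cyclin B, which is released from inhibition by CDC25 phosphatases and reinforced by the Polo and Aurora kinases. The spindle is built by kinesins and microtubule-binding proteins, kinetochores attach chromosomes to it, and the checkpoint holds back the anaphase-promoting complex until every chromosome is attached. Germinal centre B cells divide in the dark zone and are selected in the light zone, while naive B cells rest and plasma cells arise from dividing plasmablasts that leave the cell cycle. Most genes of this program are transcribed in G2 and M under the control of promoter elements, the CCAAT box bound by NF-Y and the cell cycle genes homology region (CHR) bound by the DREAM and MuvB complexes.

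The promoters of 7 of the genes are printed because they show the elements this program shares and the genes that depart from it. Each is a RefSeq window of build GRCm38.p6 from 250 bases before to 50 bases after the annotated start, written 5′ to 3′ along the gene. Capitals mark each match, on either strand, to the CCAAT box, to the CHR with the letters TTTGAA and to its other form with the letters TTTAAA. On the opposite strand the box reads ATTGG, and the first CHR form reads TTCAAA.
Ccnb2: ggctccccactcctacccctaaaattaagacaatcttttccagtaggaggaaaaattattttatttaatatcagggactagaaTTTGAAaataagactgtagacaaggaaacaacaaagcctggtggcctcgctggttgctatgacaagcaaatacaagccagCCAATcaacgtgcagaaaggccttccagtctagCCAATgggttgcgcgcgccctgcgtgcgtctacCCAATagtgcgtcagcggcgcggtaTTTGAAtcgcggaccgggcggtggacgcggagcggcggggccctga
Cdca8: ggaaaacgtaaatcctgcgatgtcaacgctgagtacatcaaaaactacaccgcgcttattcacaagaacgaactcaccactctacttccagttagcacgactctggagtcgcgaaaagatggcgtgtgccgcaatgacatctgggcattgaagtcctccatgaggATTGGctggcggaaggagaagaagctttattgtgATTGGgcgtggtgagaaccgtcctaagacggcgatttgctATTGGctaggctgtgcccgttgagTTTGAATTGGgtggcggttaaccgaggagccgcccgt
Cenpf: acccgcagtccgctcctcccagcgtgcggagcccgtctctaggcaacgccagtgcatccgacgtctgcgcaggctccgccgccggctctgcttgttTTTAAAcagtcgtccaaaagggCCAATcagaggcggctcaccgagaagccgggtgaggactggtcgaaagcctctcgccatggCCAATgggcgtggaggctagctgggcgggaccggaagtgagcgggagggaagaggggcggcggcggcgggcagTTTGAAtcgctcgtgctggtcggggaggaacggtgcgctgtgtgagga
Mki67: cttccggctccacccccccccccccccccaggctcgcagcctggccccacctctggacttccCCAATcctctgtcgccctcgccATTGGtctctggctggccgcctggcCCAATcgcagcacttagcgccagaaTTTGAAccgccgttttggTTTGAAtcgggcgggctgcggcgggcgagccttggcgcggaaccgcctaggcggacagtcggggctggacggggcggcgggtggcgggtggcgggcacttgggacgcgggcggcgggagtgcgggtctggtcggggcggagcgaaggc
Birc5: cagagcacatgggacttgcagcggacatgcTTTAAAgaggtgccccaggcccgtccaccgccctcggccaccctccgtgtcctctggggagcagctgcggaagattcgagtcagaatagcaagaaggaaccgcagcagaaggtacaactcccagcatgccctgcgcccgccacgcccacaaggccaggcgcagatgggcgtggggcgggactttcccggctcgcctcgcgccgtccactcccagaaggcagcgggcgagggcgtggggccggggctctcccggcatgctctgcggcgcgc
Cdc25b: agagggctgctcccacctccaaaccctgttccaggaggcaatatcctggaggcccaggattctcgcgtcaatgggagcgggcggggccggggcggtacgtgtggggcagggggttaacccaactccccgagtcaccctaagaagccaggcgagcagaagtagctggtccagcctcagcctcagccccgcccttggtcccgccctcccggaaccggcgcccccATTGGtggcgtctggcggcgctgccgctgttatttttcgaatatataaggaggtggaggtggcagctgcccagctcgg
Pttg1: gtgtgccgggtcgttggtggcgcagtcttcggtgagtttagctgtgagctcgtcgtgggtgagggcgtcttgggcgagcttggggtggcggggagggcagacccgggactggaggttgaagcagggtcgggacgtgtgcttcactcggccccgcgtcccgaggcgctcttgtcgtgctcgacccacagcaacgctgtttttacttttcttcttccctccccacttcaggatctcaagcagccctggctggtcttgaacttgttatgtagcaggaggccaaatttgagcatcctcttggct
The windows lie at chr9:70421505-70421804 (minus strand), chr4:124936868-124937167 (minus), chr1:189688037-189688336 (minus), chr7:135716330-135716629 (minus), chr11:117848987-117849286 (plus), chr2:131186698-131186997 (plus) and chr11:43425932-43426231 (minus), each holding its gene's start and therefore upstream sequence and the beginning of the first exon. Ccnb2, Cdca8, Cenpf and Mki67 follow the usual pattern of levels described here. Their windows hold 3, 4, 2 and 3 matches to the CCAAT box and 2, 1, 1 and 2 to the first CHR form. In Cdca8 this CHR and an inverted box share 1 base. Birc5 follows the same pattern of levels with 1 TTTAAA and no match to the other motifs. Cdc25b holds 1 CCAAT match, and Pttg1 none of the 3.

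Of the 53 genes, 43 had a window in the table. CCAAT was found in 33 of 43 genes (76.7%), against 41.1% of the 27025 genes in the table, and at least 2 copies in 22 of 43 genes (51.2%), against 13.3% of the 27025 genes in the table. TTTGAA was found in 33 of 43 genes (76.7%), against 20.2% of the 27025 genes in the table, and TTTAAA in 10 of 43 genes (23.3%), against 14.9% of the 27025 genes in the table. Within 50 bases of the start on either side, TTTGAA stood in 29 of 43 genes (67.4%), against 5.72% of the 27025 genes in the table. None of the 3 was found in 5 genes (11.6%, against 41.8%), Mad2l1, Ncaph, Nuf2, Nusap1 and Pttg1. These are matches of letters, not measured binding, and 4 of those 5 genes had the common pattern of levels.

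Total counts per library were 652722 to 788999 in aPIK3CD PC, 473149 to 704361 in WT PC, 1154809 to 1941224 in aPIK3CD DZ, 25797 to 1464876 in WT DZ, 1333598 to 1584402 in aPIK3CD LZ, 902088 to 1835558 in WT LZ, 2332364 to 2688981 in aPIK3CD naive and 1965329 to 2820830 in WT naive B cells. The low value in WT DZ is replicate 3, in which 1 count is worth far more CPM than elsewhere. Sdc1, the plasma cell surface proteoglycan, averaged 772 ± 71.1 CPM in aPIK3CD PC and 582 ± 43.0 CPM in WT PC, and no other group averaged above 23.5 CPM. The 7 plasma cell marker genes, Sdc1 among them, summed to 11800 to 13500 CPM in aPIK3CD and 12600 to 16200 CPM in WT PC. In WT DZ they summed to 1250, 1260 and 1310 CPM in replicates 1, 2 and 4, and to 2720 CPM in replicate 3. The part of plasma cell RNA in that library was not tested. Bcl6, the transcription factor of germinal centre B cells, averaged 134 ± 28.3 and 133 ± 29.9 CPM in aPIK3CD and WT DZ, 87.5 ± 19.2 and 90.0 ± 19.2 CPM in aPIK3CD and WT LZ, and at most 22.3 CPM in the other 4 groups. The 5 dark zone marker genes, which include Cxcr4, summed to 920 to 1060 and 975 to 1230 CPM in aPIK3CD and WT DZ, against 581 to 760 and 617 to 917 CPM in LZ, but to 1080 to 1200 and 1030 to 1260 CPM in naive B cells, so this list did not set DZ apart from naive B cells. The 7 T cell marker genes together summed to 279 to 406 CPM in aPIK3CD PC, 219 to 661 in WT PC, 273 to 365 and 218 to 443 in aPIK3CD and WT DZ, 409 to 592 and 323 to 602 in LZ, and 134 to 255 and 185 to 224 in naive B cells; Lck gave 75.4 to 401 CPM of these by group mean and Cd3e 1.67 to 16.5 CPM. The 4 natural killer cell genes together summed to 83.2 to 171 CPM in aPIK3CD and 118 to 206 CPM in WT naive B cells and reached at most 60.4 CPM in any other library. The part of T cell and natural killer cell RNA in the results was not tested.

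Transcripts of the 53 genes were abundant in germinal centre B cells of both zones and scarce in naive B cells and plasma cells. Together they summed to 16447, 16104, 16166 and 14992 CPM (counts scaled to TMM-adjusted library totals) in the 4 aPIK3CD DZ libraries and 15984, 17103, 13827 and 17116 CPM in WT DZ. The sums in LZ were 12835, 12185, 13480 and 12735 CPM in aPIK3CD and 12072, 13254, 13400 and 11890 CPM in WT. PC had sums of 1394, 1440, 986 and 1127 CPM in aPIK3CD and 1952, 1834, 1644 and 826 CPM in WT. Every germinal centre library thus stood far above every plasma cell library. Naive B cells had sums of 1017, 1667, 1387 and 891 CPM in aPIK3CD and 1097, 1031, 1134 and 1836 CPM in WT, in the same range as plasma cells. In bulk libraries, fewer dividing cells and less of each transcript per cell cannot be told apart.

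**Figure D1:**
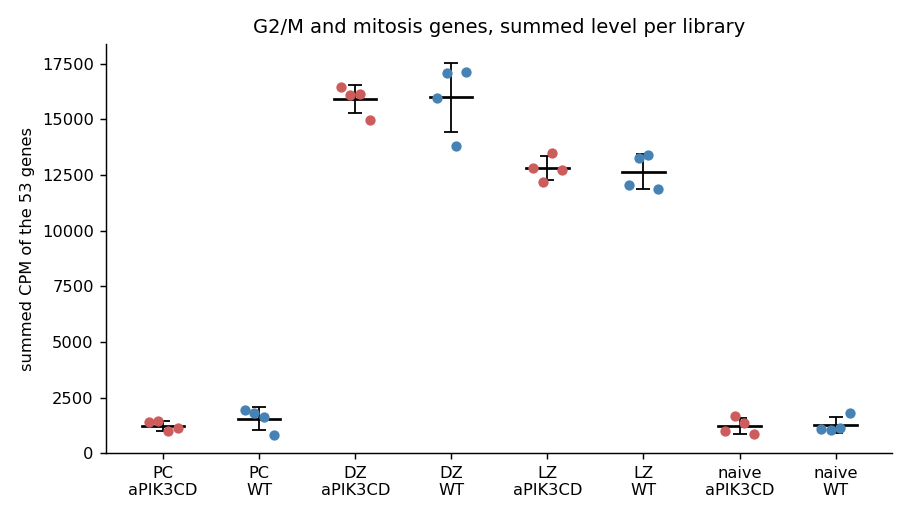
Summed CPM of the 53 genes (y axis, linear) in each of the 32 libraries, by population and genotype (x axis); points are libraries, the short line the mean and the bars the SD of 4. DZ libraries sit between 13827 and 17116 CPM and LZ libraries between 11890 and 13480, while PC and naive libraries stay between 826 and 1952.

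Of the 53 genes, 48 had their highest population mean in DZ. Ccna2, Aurkb, Bub1 and Ttk were highest in LZ, and Pttg1 in PC. These means include the shallow WT DZ replicate 3, where Ccna2 had 136, Aurkb 68.1, Bub1 0 and Ttk 34.1 CPM. For each of these genes it was the lowest of the 16 germinal centre libraries. The fitted DZ over LZ log2 fold changes of Ccna2, Aurkb and Bub1 were above 0 in both genotypes, and that of Ttk in aPIK3CD mice alone. The lowest mean was in naive B cells for 31 genes and in PC for 21. In 45 genes every one of the 16 germinal centre libraries lay above every one of the 16 PC and naive libraries, and in 51 genes when the shallow WT DZ replicate 3 was left out. The 2 exceptions then were Cdc25b and Pttg1. The same separation was not counted over all genes, so no background share stands beside these counts. Per kilobase of exon, the scale on which levels of different genes can be compared, Ccnb2 had the highest mean level in aPIK3CD DZ with 280.4 CPM per kb, ahead of Smc4 with 181 and Cdc20 with 167, and Espl1 the lowest with 8.23. The length is that of all annotated exons of a gene, not of the transcripts expressed.

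**Figure D2:**
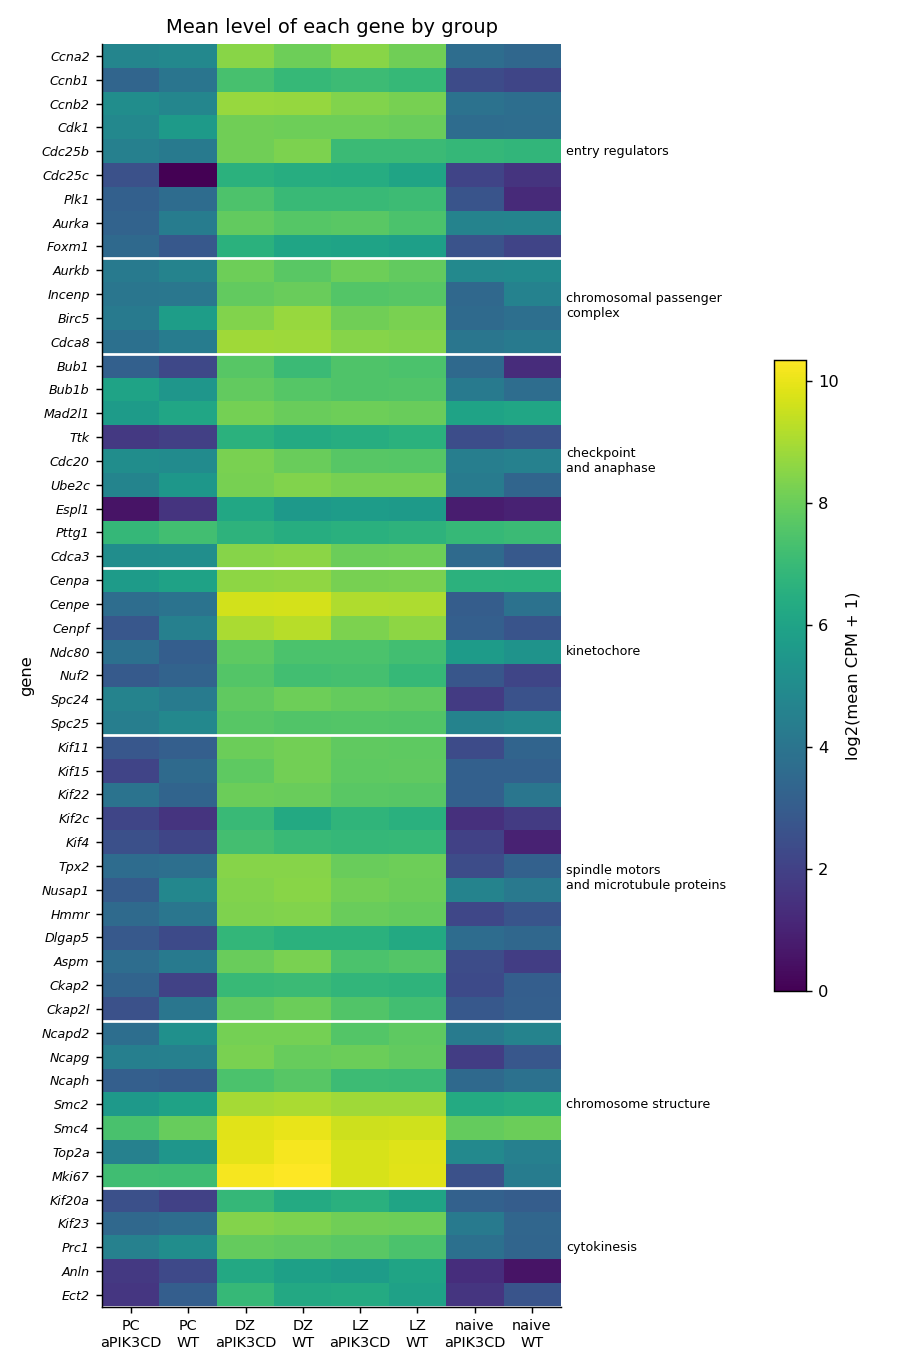
Mean level of each of the 53 genes (rows, grouped by role) in the 8 groups (columns) as log2(mean CPM + 1). The 4 germinal centre columns are bright in all roles, and Pttg1 and Cdc25b are the rows that keep similar colours in naive B cells.

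Against naive B cells, 51 of the 53 genes were higher in LZ in each genotype and none was lower (edgeR quasi-likelihood F test, adjusted p below 0.05). Over all genes tested, 21.8% were higher and 20.8% lower in aPIK3CD LZ, and 19.8% and 20.2% in WT LZ. The median log2 fold change of the 53 genes was 4.57 in aPIK3CD mice and 4.39 in WT mice, beside -0.023 and -0.042 over all genes tested. The steepest were Mki67 (7.48 ± 0.47), Ncapg (6.60 ± 0.63) and Spc24 (6.57 ± 0.27) in aPIK3CD mice. In WT mice they were Anln (6.95 ± 0.56), Kif4 (6.90 ± 0.55) and Bub1 (6.75 ± 0.50), which encode the cleavage furrow protein anillin, a chromokinesin and a checkpoint kinase. With 1 library left out, Mki67 ran from 7.04 to 9.03 and Ncapg from 6.16 to 9.73 in aPIK3CD mice. Kif4 ran from 6.42 to 8.60 in WT mice. The order of these genes is thus not firm. The smallest changes that passed were those of 2 members, Cenpa at 1.61 ± 0.16 in aPIK3CD and Smc4 at 1.63 ± 0.13 in WT. Cdc25b and Pttg1 did not pass, with edgeR adjusted p of 0.544 and 0.0963 in aPIK3CD and 0.427 and 0.222 in WT mice. These comparisons and those of zones and plasma cells share libraries, so they are not independent of each other.

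Between the zones, nearly every gene of the set had the higher level in DZ, by a small margin. In aPIK3CD mice 10 of 53 genes passed the test, all higher in DZ, against 2.91% of all genes tested that were higher and 3.13% that were lower. In WT mice 8 of 53 passed, all higher in DZ, against 1.26% higher and 1.3% lower over all genes. The DZ over LZ log2 fold change was above 0 for 51 genes in aPIK3CD mice and for 52 in WT mice, with medians of 0.28 and 0.35, beside 0.0074 and -0.019 over all genes. All 4 DZ libraries lay above all 4 LZ libraries for 14 genes in aPIK3CD mice, against 5.9% of all genes, and for 15 genes in WT mice, against 3.44%. The 4 WT DZ libraries include the shallow replicate 3, where 1 count is worth 34.1 CPM. In all, 6 genes passed in both genotypes, namely Cdc25b, Cenpf, Cenpe, Tpx2, Cdca3 and Cdca8. Over the alternatives run, Cenpf passed in 16 of 17 in aPIK3CD and 14 of 16 in WT mice and Cenpe in 15 of 17 and 13 of 16, while in WT mice Tpx2 passed in 7 of 16, Cdca8 in 6 of 16 and Cdca3 in 4 of 16, against 15, 11 and 12 of 17 in aPIK3CD mice. Mki67, Cdc20, Ncapd2 and Ect2 passed in aPIK3CD mice alone, Ect2 in 9 of 17 alternatives, and Hmmr and Ckap2l in WT mice alone, in 8 and 6 of 16 alternatives. The interaction of genotype and zone passed for none of the 53 genes and for 0% of all genes (edgeR, 0 of the 53 genes and 383 of all genes at an unadjusted p below 0.05). It came from 1 fit of all 32 libraries, where the median SE of these genes was 0.57. In the zone comparisons the median SE was 0.14 in aPIK3CD and 0.16 in WT mice. No difference between genotypes was found, but the interaction test could miss differences of the size seen here.

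The count moved with the fit and with single libraries. In a single fit over all 8 groups 1 gene passed in each genotype. With the replicate number as a block 14 passed in aPIK3CD and 3 in WT mice, and with the DESeq2 Wald test 14 and 3. In aPIK3CD mice it was 10 with all libraries, 7 to 15 with 1 library left out, and 6 without replicate 1 of both zones. In WT mice it was 8 with all libraries and 1 without DZ replicate 2, 3 without DZ replicate 1, DZ replicate 4, LZ replicate 1 or LZ replicate 2, 5 without LZ replicate 3, and 10 without LZ replicate 4 or the shallow DZ replicate 3. Cdc25b passed under every alternative run in both genotypes. The 5 light zone marker genes, which include Cd83, summed to 826 to 1130 and 613 to 986 CPM in aPIK3CD and WT DZ, against 1550 to 2090 and 1390 to 1840 CPM in LZ, and to 1240 to 1490 and 1250 to 1480 CPM in naive B cells. The 6 naive B cell marker genes summed to 427 to 726 and 445 to 612 CPM in aPIK3CD and WT DZ. In LZ they summed to 911 to 1130 and 708 to 1030 CPM, and in naive B cells to 3860 to 4130 and 3540 to 4280 CPM. The part of naive B cell RNA in the difference between the zones was not tested.

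**Figure D3:**
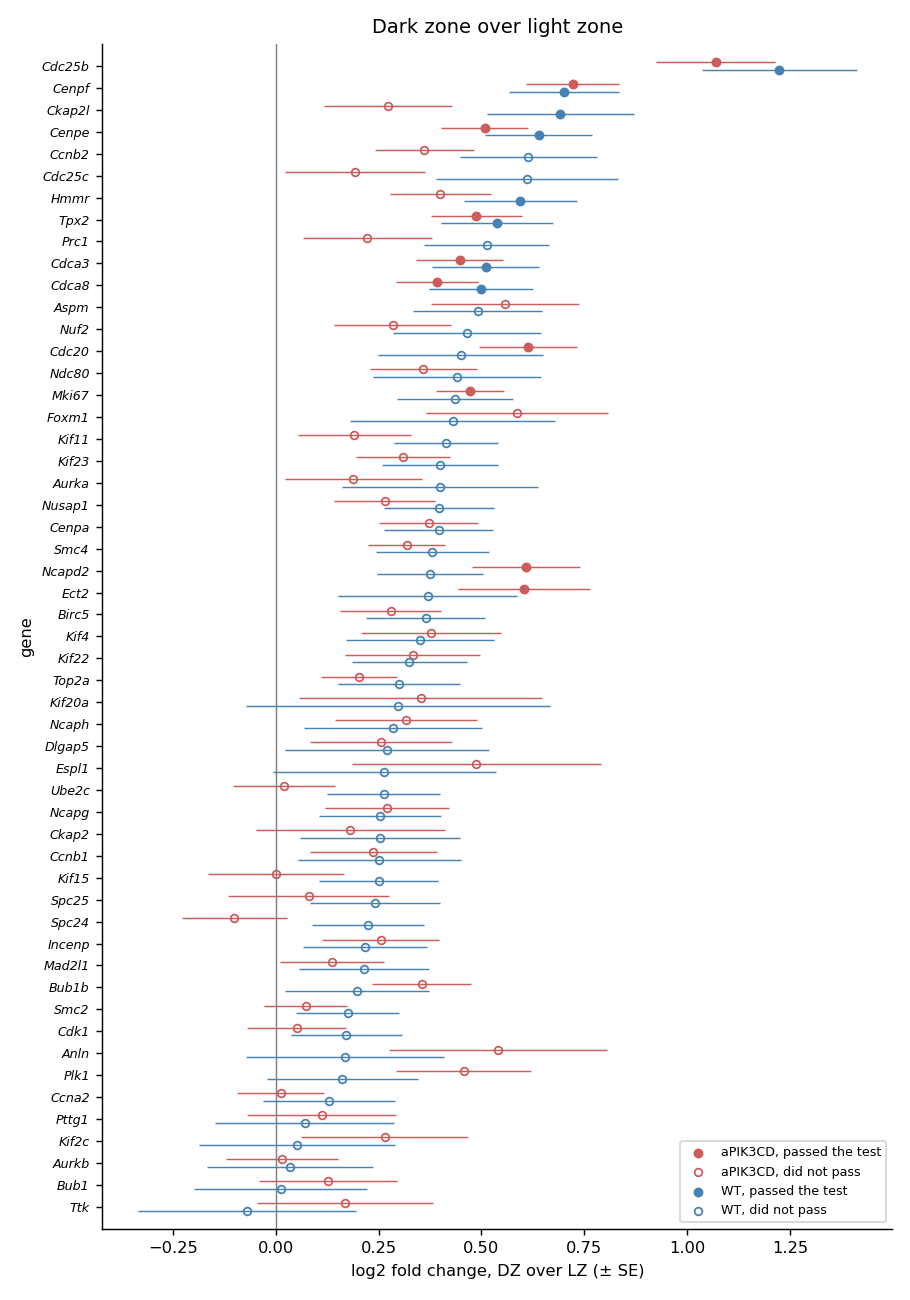
Log2 fold change of DZ over LZ with its SE (x axis) for each of the 53 genes (y axis, ordered by the WT value) in aPIK3CD and WT mice; filled points passed the test at an adjusted p below 0.05. Almost all points lie right of 0, Cdc25b is farthest out in both genotypes, and Ttk in WT and Spc24 in aPIK3CD mice lie left of 0.

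Among the 9 regulators of mitotic entry, the 3 cyclins, Cdk1, the phosphatases Cdc25b and Cdc25c, the kinases Plk1 and Aurka and the transcription factor Foxm1 summed to 2114 ± 93.0 CPM in aPIK3CD DZ and 1874 ± 514 CPM in WT DZ (mean ± SD, n = 4). The LZ sums were 1719 ± 146 and 1510 ± 264 CPM. In aPIK3CD mice, Ccnb2, the gene of cyclin B2, had 476, 390.1, 490.1 and 361 CPM in DZ and 358, 307, 377 and 297 CPM in LZ. In WT mice, Ccnb2 had 429, 478, 238 and 525 CPM in DZ and 308, 351, 329 and 205 CPM in LZ. DZ and LZ libraries overlapped in both genotypes, in WT mice through the shallow DZ replicate 3 alone. Ccnb2 had a DZ over LZ log2 fold change of 0.36 ± 0.12 (SE, edgeR adjusted p = 0.0951) in aPIK3CD mice and 0.61 ± 0.17 (edgeR adjusted p = 0.0557) in WT mice. Ccnb2 had 42.0, 42.0, 13.1 and 35.8 CPM in PC and 5.05, 30.3, 13.0 and 7.22 CPM in naive B cells of aPIK3CD mice. WT PC had 40.8, 15.6, 44.3 and 2.30 CPM of Ccnb2, and WT naive B cells had 0, 3.80, 0 and 46.2 CPM. All 16 germinal centre libraries, from 205 CPM upwards, thus lay above all 16 PC and naive libraries, which reached 46.2 CPM. In aPIK3CD mice, Ccna2, the gene of cyclin A2 that partners CDK2 and CDK1, had 387, 367, 372 and 342 CPM in DZ and 430.3, 338, 342 and 350.2 CPM in LZ. In WT mice, Ccna2 had 269, 295, 136 and 374 CPM in DZ and 254, 313, 309.8 and 224 CPM in LZ. For Ccna2, DZ and LZ libraries overlapped in both genotypes, with a DZ over LZ log2 fold change of 0.012 ± 0.11 (SE, edgeR adjusted p = 0.975) in aPIK3CD and 0.13 ± 0.16 (edgeR adjusted p = 0.78) in WT. Ccna2 had 28.0, 45.8, 24.3 and 3.40 CPM in PC and 0.722, 15.9, 28.2 and 2.75 CPM in naive B cells of aPIK3CD mice. For Ccna2 the WT libraries held 34.0, 46.8, 18.7 and 9.20 CPM in PC and 0.484, 4.12, 8.55 and 26.9 CPM in naive B cells. Ccna2 was at or above 136 CPM in every germinal centre library and at or below 46.8 CPM in every other library. Over both genotypes its LZ mean was the higher by a small margin, with the shallow WT DZ replicate 3 at 136 CPM. Cdk1, the mitotic kinase itself, had 283, 240, 328 and 262 CPM in aPIK3CD DZ and 266, 241, 288 and 279.9 CPM in aPIK3CD LZ, which overlapped.

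The phosphatase gene Cdc25b, whose product activates CDK1, showed the steepest difference between the zones. It had 290.2, 321, 253 and 252 CPM in aPIK3CD DZ and 151, 157, 114 and 112 CPM in aPIK3CD LZ. In WT mice Cdc25b had 357, 329.8, 341 and 255 CPM in DZ and 137, 189, 98.7 and 110 CPM in LZ. The zones did not overlap in either genotype, with log2 fold changes of 1.07 ± 0.14 (SE, edgeR adjusted p = 0.000353) in aPIK3CD and 1.22 ± 0.19 (edgeR adjusted p = 0.000959) in WT mice. Naive B cells overlapped with LZ, with 107, 167, 90.1 and 114 CPM in aPIK3CD and 85.2, 162, 106 and 97.6 CPM in WT. Plasma cells held far less, with 29.6, 13.3, 20.6 and 23.8 CPM in aPIK3CD and 18.1, 26.0, 8.52 and 20.7 CPM in WT. All 8 PC libraries lay below all 24 others.

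The chromosomal passenger complex corrects wrong attachments and guides cytokinesis, with Aurkb as its kinase, Incenp as scaffold, and Birc5 and Cdca8 as the targeting subunits. In aPIK3CD mice, Cdca8, the gene of borealin, had 503, 481, 442 and 436 CPM in DZ and 362, 326, 357 and 374 CPM in LZ. In WT mice, Cdca8 had 472, 462, 375 and 504 CPM in DZ and 308, 333, 351 and 338 CPM in LZ. For Cdca8, the DZ libraries lay above the LZ libraries without overlap in both genotypes, with a DZ over LZ log2 fold change of 0.39 ± 0.10 (SE, edgeR adjusted p = 0.0262) in aPIK3CD and 0.50 ± 0.13 (edgeR adjusted p = 0.039) in WT. In WT mice the lowest DZ value, 375 CPM, came from the shallow replicate 3, where 1 count is worth 34.1 CPM. Cdca8 had 6.23, 26.7, 7.49 and 11.9 CPM in PC and 11.6, 25.3, 17.9 and 7.91 CPM in naive B cells of aPIK3CD mice. Cdca8 in WT mice had 34.0, 18.2, 22.1 and 2.30 CPM in PC and 15, 15.2, 14.3 and 27.3 CPM in naive B cells. No PC or naive library exceeded 34.0 CPM, and no germinal centre library was below 308 CPM, for Cdca8. In aPIK3CD mice, Birc5, the gene of survivin, had 326, 379, 356 and 266 CPM in DZ and 266, 290.2, 255 and 282 CPM in LZ. In WT mice, Birc5 had 407, 398, 545 and 370.1 CPM in DZ and 272, 326, 274 and 370.3 CPM in LZ. For Birc5, DZ and LZ libraries overlapped in both genotypes, with a DZ over LZ log2 fold change of 0.28 ± 0.12 (SE, edgeR adjusted p = 0.215) in aPIK3CD and 0.36 ± 0.14 (edgeR adjusted p = 0.208) in WT. Birc5 had 23.4, 24.8, 13.1 and 10.2 CPM in PC and 0, 26.0, 16.8 and 0.344 CPM in naive B cells of aPIK3CD mice. WT PC had 79.3, 72.7, 49.4 and 11.5 CPM of Birc5, and WT naive B cells had 0.968, 0, 7.13 and 42.2 CPM. For Birc5 the lowest germinal centre library (255 CPM) was above the highest PC or naive library (79.3 CPM). Aurkb had a DZ over LZ log2 fold change near 0 in both genotypes, at 0.015 ± 0.14 in aPIK3CD and 0.034 ± 0.20 in WT mice (SE). Incenp stood at 0.26 ± 0.14 and 0.22 ± 0.15. Of the 4 subunits, Cdca8 was the one to pass between the zones, in both genotypes.

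Of the 9 checkpoint and anaphase genes, Bub1, Bub1b, Mad2l1 and Ttk act in the checkpoint that restrains the anaphase-promoting complex. Cdc20 encodes an activator of this complex and Ube2c its ubiquitin-conjugating enzyme. Espl1 encodes separase, Pttg1 its inhibitor securin, and Cdca3 a trigger of mitotic entry. In aPIK3CD mice, Cdca3 had 363, 350.1, 393 and 322 CPM in DZ and 288, 248, 266 and 247 CPM in LZ. In WT mice, Cdca3 had 384, 395, 341 and 380.4 CPM in DZ and 271, 301, 272 and 224 CPM in LZ. For Cdca3, the DZ libraries lay above the LZ libraries without overlap in both genotypes, with a DZ over LZ log2 fold change of 0.45 ± 0.11 (SE, edgeR adjusted p = 0.0191) in aPIK3CD and 0.51 ± 0.13 (edgeR adjusted p = 0.0399) in WT. The lowest WT DZ value of Cdca3, 341 CPM, was again the shallow replicate 3, at 34.1 CPM per count. Cdca3 had 48.3, 30.5, 28.1 and 23.8 CPM in PC and 3.97, 15.5, 24.8 and 0 CPM in naive B cells of aPIK3CD mice. For Cdca3 the WT libraries held 47.6, 52.0, 28.9 and 4.60 CPM in PC and 0, 1.27, 3.21 and 21.3 CPM in naive B cells. All 16 germinal centre libraries, from 224 CPM upwards, thus lay above all 16 PC and naive libraries, which reached 52.0 CPM. In aPIK3CD mice, Ube2c, the gene of the ubiquitin-conjugating enzyme of the complex, had 285, 364, 306 and 254 CPM in DZ and 279.7, 276, 306 and 328 CPM in LZ. In WT mice, Ube2c had 376, 395, 204 and 352 CPM in DZ and 271, 327, 283 and 329.9 CPM in LZ. For Ube2c, DZ and LZ libraries overlapped in both genotypes, in WT mice through the shallow DZ replicate 3 alone. Its DZ over LZ log2 fold change was 0.02 ± 0.12 (SE, edgeR adjusted p = 0.961) in aPIK3CD and 0.26 ± 0.14 (edgeR adjusted p = 0.382) in WT. Ube2c had 34.3, 47.7, 11.2 and 5.11 CPM in PC and 0, 44.7, 27.9 and 2.06 CPM in naive B cells of aPIK3CD mice. Ube2c in WT mice had 61.1, 39.0, 63.0 and 13.8 CPM in PC and 0, 0.317, 0 and 37.4 CPM in naive B cells. Ube2c was at or above 204 CPM in every germinal centre library and at or below 63.0 CPM in every other library. The activator gene Cdc20 had 350.5, 268, 316 and 313 CPM in aPIK3CD DZ and 208, 179, 226 and 205 CPM in aPIK3CD LZ, which did not overlap (log2 fold change 0.61 ± 0.12, edgeR adjusted p = 0.00526). In WT mice Cdc20 overlapped between the zones, at 224, 272, 170.3 and 345 CPM in DZ and 176, 258, 237 and 123 CPM in LZ (edgeR adjusted p = 0.275). The checkpoint kinase genes showed little difference between zones, with log2 fold changes of 0.13 ± 0.17 and 0.012 ± 0.21 for Bub1 and 0.17 ± 0.21 and -0.069 ± 0.26 for Ttk in aPIK3CD and WT mice (SE).

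Pttg1, the gene of securin, had no higher level in the germinal centre. In PC it had 112, 124, 129 and 102 CPM in aPIK3CD and 134, 161, 164 and 134 CPM in WT mice. Pttg1 had 132, 108, 90.7 and 79.7 CPM in aPIK3CD DZ and 115, 129, 0 and 99.2 CPM in WT DZ, where the 0 is the shallow replicate 3. LZ held 87.9, 108, 96.5 and 88.3 CPM in aPIK3CD and 122, 113, 94.2 and 87.1 CPM in WT. WT PC lay above WT LZ without overlap, and aPIK3CD PC overlapped with aPIK3CD LZ. Naive B cells had 115, 147, 116 and 107 CPM in aPIK3CD and 169, 91.2, 123 and 145 CPM in WT. Against LZ, the log2 fold change of Pttg1 was 0.30 ± 0.16 (SE, edgeR adjusted p = 0.121) in aPIK3CD PC, and it was higher in WT PC by 0.55 ± 0.17 (edgeR adjusted p = 0.0156). The count does not tell which isoform or related copy its reads came from.

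**Figure D4:**
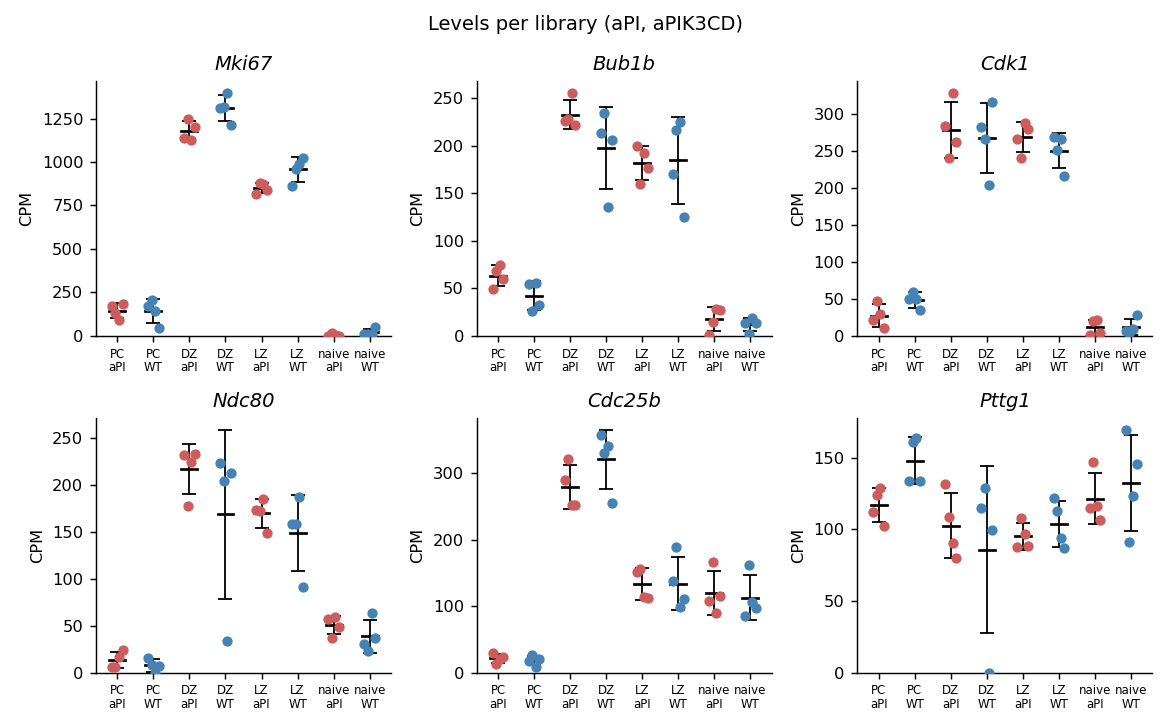
CPM per library (y axes, linear) of 6 genes in the 8 groups (x axes; aPI, aPIK3CD), with the mean as a short line and the SD of 4 as bars. Mki67, Bub1b and Cdk1 are low but not absent in PC, Ndc80 and Cdc25b are lower in PC than in naive B cells, and Pttg1 overlaps between populations, with the 0 in WT DZ replicate 3.

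The 7 kinetochore genes comprise Cenpa, the centromeric histone variant, the microtubule motor gene Cenpe, the outer kinetochore gene Cenpf, and Ndc80, Nuf2, Spc24 and Spc25, which encode the 4 subunits of the NDC80 complex. In aPIK3CD mice, Cenpe had 849, 812, 795 and 709.5 CPM in DZ and 478, 524, 598 and 626 CPM in LZ. In WT mice, Cenpe had 824, 864, 783 and 843 CPM in DZ and 510.2, 552, 581 and 498 CPM in LZ. For Cenpe, the DZ libraries lay above the LZ libraries without overlap in both genotypes, with a DZ over LZ log2 fold change of 0.51 ± 0.11 (SE, edgeR adjusted p = 0.0082) in aPIK3CD and 0.64 ± 0.13 (edgeR adjusted p = 0.00957) in WT. Cenpe had 17.1, 13.3, 11.2 and 6.81 CPM in PC and 9.39, 6.22, 8.40 and 4.82 CPM in naive B cells of aPIK3CD mice. WT PC had 20.4, 2.60, 23.8 and 11.5 CPM of Cenpe, and WT naive B cells had 9.19, 8.55, 12.8 and 24.5 CPM. No PC or naive library exceeded 24.5 CPM, and no germinal centre library was below 478 CPM, for Cenpe. In aPIK3CD mice, Cenpf had 561, 546, 542 and 449 CPM in DZ and 286, 297, 326 and 362 CPM in LZ. In WT mice, Cenpf had 648, 668, 477 and 639.7 CPM in DZ and 349, 409, 434 and 364 CPM in LZ. For Cenpf, the DZ libraries lay above the LZ libraries without overlap in both genotypes, with a DZ over LZ log2 fold change of 0.72 ± 0.11 (SE, edgeR adjusted p = 0.00119) in aPIK3CD and 0.70 ± 0.13 (edgeR adjusted p = 0.00631) in WT. The lowest WT DZ value of Cenpf, 477 CPM, was the shallow replicate 3, at 34.1 CPM per count. Cenpf had 10.9, 5.72, 3.74 and 3.40 CPM in PC and 0.361, 27.6, 2.67 and 0.344 CPM in naive B cells of aPIK3CD mice. For Cenpf the WT libraries held 20.4, 46.8, 18.7 and 2.30 CPM in PC and 0.484, 0.633, 0 and 20.5 CPM in naive B cells. For Cenpf the lowest germinal centre library (286 CPM) was above the highest PC or naive library (46.8 CPM). Cenpe and Cenpf thus passed in both genotypes, while the NDC80 complex did not pass: its 4 genes had log2 fold changes of -0.10 to 0.36 in aPIK3CD and 0.22 to 0.47 in WT mice. Cenpa had 0.37 ± 0.12 and 0.40 ± 0.13, with edgeR adjusted p of 0.0834 and 0.124.

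The 12 spindle motors and microtubule proteins include the kinesins Kif11, Kif15, Kif22, Kif2c and Kif4 and the spindle assembly factor Tpx2, which activates Aurora A. In aPIK3CD mice, Tpx2 had 367, 375, 367 and 294 CPM in DZ and 242, 242, 262 and 255 CPM in LZ. In WT mice, Tpx2 had 410.1, 386, 238 and 398 CPM in DZ and 226, 280.3, 299 and 259 CPM in LZ. For Tpx2, DZ and LZ did not overlap in aPIK3CD mice and overlapped in WT mice through the shallow DZ replicate 3 alone. Its DZ over LZ log2 fold change was 0.49 ± 0.11 (SE, edgeR adjusted p = 0.0143) in aPIK3CD and 0.54 ± 0.14 (edgeR adjusted p = 0.0396) in WT. Tpx2 had 6.23, 17.2, 18.7 and 5.11 CPM in PC and 0.361, 15.2, 0.764 and 0.688 CPM in naive B cells of aPIK3CD mice. Tpx2 in WT mice had 22.6, 2.60, 20.4 and 4.60 CPM in PC and 12.1, 0.317, 6.77 and 14.1 CPM in naive B cells. All 16 germinal centre libraries, from 226 CPM upwards, thus lay above all 16 PC and naive libraries, which reached 22.6 CPM. In aPIK3CD mice, Nusap1, the gene of a spindle-associated protein, had 334, 345, 368 and 308 CPM in DZ and 311, 245, 331 and 243 CPM in LZ. In WT mice, Nusap1 had 316, 376, 409 and 347 CPM in DZ and 274, 290.4, 268 and 221 CPM in LZ. For Nusap1, DZ and LZ did not overlap in WT mice and overlapped in aPIK3CD mice, with a DZ over LZ log2 fold change of 0.26 ± 0.12 (SE, edgeR adjusted p = 0.244) in aPIK3CD and 0.40 ± 0.13 (edgeR adjusted p = 0.128) in WT. Nusap1 had 3.12, 21.0, 1.87 and 1.70 CPM in PC and 18.8, 37.3, 36.3 and 4.13 CPM in naive B cells of aPIK3CD mice. WT PC had 45.3, 28.6, 18.7 and 13.8 CPM of Nusap1, and WT naive B cells had 0, 6.97, 7.13 and 55.0 CPM. Nusap1 was at or above 221 CPM in every germinal centre library and at or below 55.0 CPM in every other library. Hmmr and Ckap2l, both genes of spindle proteins, had log2 fold changes of 0.40 ± 0.12 and 0.27 ± 0.16 in aPIK3CD mice (SE, edgeR adjusted p = 0.066 and 0.358). In WT mice both passed, at 0.59 ± 0.14 and 0.69 ± 0.18 (edgeR adjusted p = 0.024 and 0.0431). None of the 5 kinesins passed in either genotype; their log2 fold changes were -0.0002 to 0.38 in aPIK3CD and 0.051 to 0.41 in WT mice.

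The 7 genes of chromosome structure encode the condensin core (Smc2, Smc4), the other condensin I subunits measured (Ncapd2, Ncapg, Ncaph), topoisomerase II alpha (Top2a) and Ki-67 (Mki67), which coats mitotic chromosomes and marks dividing cells. In aPIK3CD mice, Mki67 had 1139, 1245, 1129 and 1204 CPM in DZ and 815, 878, 872 and 838 CPM in LZ. In WT mice, Mki67 had 1309, 1317, 1396 and 1213 CPM in DZ and 861, 959, 988 and 1025 CPM in LZ. For Mki67, the DZ libraries lay above the LZ libraries without overlap in both genotypes, with a DZ over LZ log2 fold change of 0.47 ± 0.083 (SE, edgeR adjusted p = 0.00268) in aPIK3CD and 0.44 ± 0.14 (edgeR adjusted p = 0.108) in WT. Mki67 had 171, 132, 91.7 and 186 CPM in PC and 1.80, 14.8, 3.05 and 0 CPM in naive B cells of aPIK3CD mice. For Mki67 the WT libraries held 169.8, 208, 145 and 43.7 CPM in PC and 8.22, 9.82, 11.4 and 49.0 CPM in naive B cells. No PC or naive library exceeded 208 CPM, and no germinal centre library was below 815 CPM, for Mki67. In aPIK3CD mice, Smc4 had 884, 1010, 1044 and 831 CPM in DZ and 766, 794, 741 and 726 CPM in LZ. In WT mice, Smc4 had 959, 1062, 1124 and 1027 CPM in DZ and 839, 721, 767 and 829.9 CPM in LZ. For Smc4, the DZ libraries lay above the LZ libraries without overlap in both genotypes, with a DZ over LZ log2 fold change of 0.32 ± 0.094 (SE, edgeR adjusted p = 0.0567) in aPIK3CD and 0.38 ± 0.14 (edgeR adjusted p = 0.161) in WT. Smc4 had 210.3, 183, 118 and 155 CPM in PC and 262, 216, 297 and 178 CPM in naive B cells of aPIK3CD mice. Smc4 in WT mice had 267, 213, 315 and 182 CPM in PC and 315, 224, 224 and 269 CPM in naive B cells. For Smc4 the lowest germinal centre library (721 CPM) was above the highest PC or naive library (315 CPM). Ncapd2 passed between the zones in aPIK3CD mice, with 243, 323, 284 and 321 CPM in DZ and 164, 205, 197 and 202 CPM in LZ (log2 fold change 0.61 ± 0.13, edgeR adjusted p = 0.0106). In WT mice its zones did not overlap either, at 272, 302, 306 and 286 CPM in DZ and 217, 229, 206 and 230.3 CPM in LZ, without passing (0.38 ± 0.13, edgeR adjusted p = 0.134).

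In cytokinesis, Kif23 encodes a subunit of centralspindlin, Prc1 the bundler of midzone microtubules, Kif20a a midzone kinesin, Anln anillin and Ect2 the exchange factor that activates RhoA at the furrow. In aPIK3CD mice, Kif23 had 347, 368, 354 and 301 CPM in DZ and 252, 256, 289 and 307 CPM in LZ. In WT mice, Kif23 had 332, 369.6, 170.3 and 397 CPM in DZ and 237, 290.4, 264 and 282 CPM in LZ. For Kif23, DZ and LZ libraries overlapped in both genotypes, in WT mice through the shallow DZ replicate 3 alone. Its DZ over LZ log2 fold change was 0.31 ± 0.11 (SE, edgeR adjusted p = 0.13) in aPIK3CD and 0.40 ± 0.14 (edgeR adjusted p = 0.148) in WT. Kif23 had 6.23, 5.72, 5.62 and 23.8 CPM in PC and 5.42, 28.8, 31.3 and 8.26 CPM in naive B cells of aPIK3CD mice. WT PC had 13.6, 7.79, 22.1 and 4.60 CPM of Kif23, and WT naive B cells had 13.1, 6.02, 1.07 and 18.1 CPM. All 16 germinal centre libraries, from 170.3 CPM upwards, thus lay above all 16 PC and naive libraries, which reached 31.3 CPM. In aPIK3CD mice, Prc1 had 271, 209, 233 and 243 CPM in DZ and 252, 146, 242 and 184 CPM in LZ. In WT mice, Prc1 had 251, 252, 136 and 255 CPM in DZ and 147, 179, 206 and 155 CPM in LZ. For Prc1, DZ and LZ libraries overlapped in both genotypes, in WT mice through the shallow DZ replicate 3 alone. Its DZ over LZ log2 fold change was 0.22 ± 0.16 (SE, edgeR adjusted p = 0.482) in aPIK3CD and 0.51 ± 0.15 (edgeR adjusted p = 0.0764) in WT. Prc1 had 26.5, 36.2, 13.1 and 13.6 CPM in PC and 5.78, 23.3, 18.3 and 5.16 CPM in naive B cells of aPIK3CD mice. For Prc1 the WT libraries held 63.4, 39.0, 20.4 and 9.20 CPM in PC and 4.84, 10.1, 3.56 and 18.5 CPM in naive B cells. Prc1 was at or above 136 CPM in every germinal centre library and at or below 63.4 CPM in every other library. Ect2 passed between the zones in aPIK3CD mice (0.60 ± 0.16, SE, edgeR adjusted p = 0.0341), with 144, 108, 110.4 and 119 CPM in DZ and 80.7, 78.0, 77.2 and 81.9 CPM in LZ. In WT mice Ect2 had 72.4, 83.2, 68.1 and 80.4 CPM in DZ and 58.6, 55.0, 74.5 and 50.8 CPM in LZ (0.37 ± 0.22, edgeR adjusted p = 0.465).

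Set against LZ, plasma cells had lower levels of 52 of the 53 genes in each genotype (edgeR adjusted p below 0.05), and the remaining gene in each was Pttg1. Over all genes tested, 31.6% were lower and 29.5% higher in aPIK3CD PC, and 28.3% and 28.1% in WT PC. The median log2 fold change of the 53 genes was -3.89 in aPIK3CD and -3.43 in WT mice, beside -0.066 and -0.036 over all genes. In aPIK3CD mice the separase gene Espl1, with 1 count in the 4 PC libraries and 316 in LZ, the kinesin gene Kif15 (-5.92 ± 0.28) and Cenpf (-5.67 ± 0.25) had the lowest values. In WT PC, Cdc25c had no count in 4 libraries and 408 counts in LZ, which is at least 41.0-fold lower when 3 counts are assumed for the PC group, and counting it at that bound leaves the median where it is. Bub1 (-5.40 ± 0.38) and Kif2c (-5.34 ± 0.50) followed. The smallest decreases were those of Bub1b (-1.53 ± 0.17) and Smc4 (-2.18 ± 0.15) in aPIK3CD mice and of Smc4 (-1.65 ± 0.16) and Mad2l1 (-1.84 ± 0.18) in WT mice.

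Against naive B cells, plasma cells were not uniformly low. After the filter on low counts, 35 of the 53 genes could be tested in each genotype; a gene too low in both groups was not, so the tested genes are no sample of all. In aPIK3CD mice 2 were higher in PC and 5 lower, against 26.5% and 26.2% of all genes tested. In WT mice 5 were higher and 3 lower, against 25.4% and 24.2%. Mki67 and Bub1b were higher in PC of both genotypes, and Cdc25b, Ndc80 and Cenpa lower. Ncapg (2.98 ± 1.18) and Nusap1 (-1.81 ± 0.85) in aPIK3CD and Ube2c (2.30 ± 1.15) and Ncaph (-0.90 ± 0.75) in WT mice are named for their extreme estimates and did not pass. Mki67 had 171, 132, 91.7 and 186 CPM in aPIK3CD PC, against 1.80, 14.8, 3.05 and 0 CPM in naive B cells, a log2 fold change of 4.91 ± 0.68 (SE, edgeR adjusted p = 7.82e-05). In WT mice it was 2.90 ± 0.54 (edgeR adjusted p = 0.000445), where the lowest PC library, at 43.7 CPM, and the highest naive library, at 49.0 CPM, overlapped. Bub1b, the gene of the checkpoint protein BubR1, had 49.8, 68.7, 74.9 and 59.6 CPM in aPIK3CD PC, against 1.44, 14.8, 28.6 and 27.2 CPM in naive B cells (1.82 ± 0.58, edgeR adjusted p = 0.0204). In WT mice Bub1b had 54.4, 26.0, 56.2 and 32.2 CPM in PC, against 14.0, 2.22, 18.5 and 13.7 CPM in naive B cells (1.86 ± 0.54, edgeR adjusted p = 0.00992). PC libraries lay above naive libraries for Bub1b without overlap in both genotypes.

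Cdk1, Prc1 and Cdca3 were higher in PC of WT mice. In aPIK3CD mice Cdk1 had 21.8, 47.7, 29.9 and 10.2 CPM in PC and 1.44, 20.2, 21.0 and 4.13 CPM in naive B cells, which overlapped (1.24 ± 0.75, SE, edgeR adjusted p = 0.186). Cdk1 had 49.8, 59.7, 49.4 and 34.5 CPM in WT PC, against 7.26, 4.43, 8.91 and 28.1 CPM in naive B cells, without overlap (2.04 ± 0.52, edgeR adjusted p = 0.0045). Prc1 (1.86 ± 0.63) and Cdca3 (2.41 ± 0.96) passed in WT mice although their PC and naive libraries overlapped, and passed in 11 and 8 of 15 alternatives, while Ube2c, which did not pass, did so in 6 of 16. The kinetochore gene Ndc80 had 6.23, 5.72, 16.9 and 23.8 CPM in aPIK3CD PC, against 57.0, 37.3, 59.2 and 48.8 CPM in naive B cells (-1.92 ± 0.41, edgeR adjusted p = 0.002). In WT mice Ndc80 had 15.8, 7.79, 0 and 6.90 CPM in PC, against 30.5, 23.4, 63.1 and 37.4 CPM in naive B cells (-2.35 ± 0.63, edgeR adjusted p = 0.00616). All 4 PC libraries lay below all 4 naive libraries for Ndc80 in both genotypes. For Cenpa the log2 fold change of PC over naive B cells was -0.95 ± 0.21 in aPIK3CD and -0.64 ± 0.20 in WT mice, and for Cdc25b -2.42 ± 0.28 and -2.63 ± 0.34. Smc2 (-0.79 ± 0.25) and Aurka (-1.39 ± 0.48) passed as lower in PC of aPIK3CD mice, and had -0.50 ± 0.33 and -0.33 ± 0.57 in WT mice without passing.

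Some libraries touch these comparisons. In aPIK3CD naive B cells, replicates 2 and 3 had the higher sums, and the 7 germinal centre marker genes summed to 88.2 CPM in replicate 2 and 48.1 CPM in replicate 3, against 65.0 and 64.3 CPM in replicates 1 and 4. In WT naive B cells, replicate 4 stood above the other 3, with a sum of 1836 CPM against 1031 to 1134 CPM. Without it, 14 rather than 8 of the genes passed in WT PC against naive B cells. The same markers summed to 70.7 CPM in this library, within the 55.4 to 107 CPM of the other 3. In WT PC, replicate 4 had the low sum of 826 CPM, against 1644 to 1952 CPM in the others. Bcl6 in plasma cells was at or near 0, averaging 0.954 CPM in aPIK3CD PC and 0 CPM in WT PC, while the 7 germinal centre markers together summed to 199 to 273 CPM in aPIK3CD PC and 192 to 284 CPM in WT PC.

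Within each population aPIK3CD was then set against WT, the comparison the study was built for. None of the 53 genes passed in any population (edgeR, adjusted p below 0.05). Of all genes tested, 3.2% passed in PC, 0.021% in DZ, 0% in LZ and 0% in naive B cells. In PC 249 genes passed, but 2 did once replicate 1 of aPIK3CD was moved to WT, as its genotype field has it, 15 when WT replicate 2 was left out and 17 when aPIK3CD replicate 3 was; under each of these 0 of the 53 passed. At an unadjusted p below 0.05 there were 5 of the 23 genes testable in PC, 2 of 53 in DZ, 3 of 53 in LZ and 0 of 37 in naive B cells, against 23.3%, 7.5%, 6.63% and 3.06% of all genes. DESeq2 called 1 gene in PC, and neither DESeq2 nor limma voom called any in DZ, LZ or naive B cells. The median log2 fold change of the tested genes was -0.40 in PC, -0.035 in DZ, 0.036 in LZ and -0.10 in naive B cells. In the germinal centre zones the estimates were narrow, with a median SE of 0.15 in DZ and 0.16 in LZ, and all 53 genes in LZ and 51 in DZ had a log2 fold change within 0.5 of 0.

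**Figure D5:**
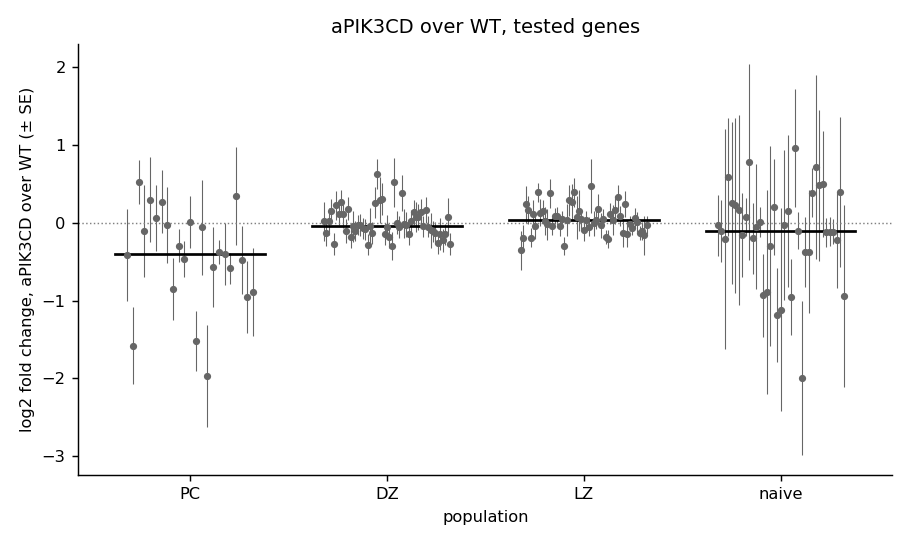
Log2 fold change of aPIK3CD over WT with its SE (y axis) for each gene of the set that could be tested in PC (23), DZ (53), LZ (53) and naive B cells (37) (x axis), in alphabetical order within a population; the black line is the median. Values in DZ and LZ cluster near 0, and those in PC and naive B cells, where the genes have few counts, spread from -1.99 to 0.96.

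The genes with the smallest p are given in every library, although none passed. In DZ these were Ect2, Cenpf and Spc24. Ect2 had 144, 108, 110.4 and 119 CPM in aPIK3CD DZ, against 72.4, 83.2, 68.1 and 80.4 CPM in WT DZ, without overlap (0.62 ± 0.19, SE, edgeR adjusted p = 0.398). Of all genes 2.94% were likewise higher without overlap. In LZ, Ect2 had 80.7, 78.0, 77.2 and 81.9 CPM in aPIK3CD, against 58.6, 55.0, 74.5 and 50.8 CPM in WT, again without overlap (0.39 ± 0.18, edgeR adjusted p = 0.753), as for 2.43% of all genes. For Ect2 all aPIK3CD libraries of each zone thus lay above all WT libraries of that zone, and the test passed in neither. Spc24 had 237, 204, 242 and 213 CPM in aPIK3CD DZ, against 280.3, 250.3, 272 and 277 CPM in WT DZ, lower without overlap as for 1.44% of all genes (-0.27 ± 0.13, edgeR adjusted p = 0.688). Cenpf, whose libraries are given with the kinetochore genes, had -0.28 ± 0.13 in DZ and -0.30 ± 0.12 in LZ, with edgeR adjusted p of 0.654 and 0.702 and overlapping libraries. Ccna2 in LZ lay higher in aPIK3CD mice without overlap (0.39 ± 0.13, edgeR adjusted p = 0.691).

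In PC the smallest p were those of Ncapd2, Birc5 and Nusap1. Ncapd2, a condensin I gene, had 9.35, 17.2, 11.2 and 11.9 CPM in aPIK3CD PC, against 36.2, 54.5, 22.1 and 29.9 CPM in WT PC. The libraries did not overlap, as for 6.04% of all genes in that direction, and the log2 fold change was -1.52 ± 0.39 (SE, edgeR adjusted p = 0.0502), just short of the threshold. Ncapd2 passed in 5 of 16 alternatives. Its edgeR adjusted p was 0.0477 in a single fit of all groups and 0.0497 with DESeq2 size factors. Once immunoglobulin and T cell receptor genes were left out, 4 of the genes passed, namely Ncapd2, Birc5, Nusap1 and Smc4. The Ncapd2 values rest on 28 counts in aPIK3CD and 63 counts in WT PC. Birc5 (-1.58 ± 0.49, edgeR adjusted p = 0.0854) and Nusap1 (-1.97 ± 0.66, edgeR adjusted p = 0.103) overlapped between genotypes. Pttg1 was lower in each aPIK3CD PC library than in any WT PC library, at -0.37 ± 0.15 (edgeR adjusted p = 0.161). Among markers of other cells, 7 myeloid genes summed to 13.1 to 497 CPM in aPIK3CD and 10.4 to 364 CPM in WT, and 7 erythroid genes to 0 to 266 and 0 to 18.2 CPM; their part in these values was not tested. In naive B cells Mki67 (-1.99 ± 0.99), Incenp (-1.18 ± 0.60) and Kif22 (-0.95 ± 0.49) had the smallest p, all with an edgeR adjusted p of 1. Incenp had 6.14, 24.9, 5.73 and 4.13 CPM in aPIK3CD naive B cells, against 11.6, 32.9, 19.2 and 27.7 CPM in WT, and Kif22 had 4.33, 7.77, 10.7 and 9.29 against 16.4, 9.50, 15.7 and 20.9 CPM; both overlapped. Across the 4 populations the interaction with genotype passed for 0 of the 53 genes and 0.0256% of all genes (edgeR, 5 of the 53 at an unadjusted p below 0.05). The 0.0256% is at the adjusted threshold, and the share of all genes at the unadjusted one is not given here.

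Other genes of the pathway, from lists that hold none of the 53, gave the setting. In LZ against naive B cells, 21.8% of all genes were higher in aPIK3CD and 19.8% in WT mice, and 20.8% and 20.2% lower. In aPIK3CD mice, 14 of 16 tested genes of the centromere and inner kinetochore were higher, 16 of 18 of the outer kinetochore and checkpoint, 15 of 18 of other mitotic kinesins and microtubule proteins, and 26 of 28 of DNA replication. In WT mice these counts were 13 of 16, 15 of 18, 17 of 18 and 26 of 27. Cohesin and its regulators had 8 of 13 and 8 of 13, and the anaphase-promoting complex 9 of 16 and 6 of 16, in aPIK3CD and WT mice. Condensin II had 2 of 3 and 3 of 3, cell cycle transcription 9 of 16 and 8 of 16, regulators of CDK1 and other G2 genes 16 of 18 and 16 of 18, and the CDK inhibitors 2 of 4 and 2 of 4. In the opposite direction, 2 of the 4 CDK inhibitors passed as lower in aPIK3CD and 0 in WT LZ, 3 and 2 genes of cell cycle transcription, 0 and 1 of cohesin, 1 and 0 each of other mitotic kinesins and DNA replication, and 1 and 1 each of the anaphase-promoting complex and of the regulators of CDK1. Within cohesin the cohesion factor genes Esco2 (5.35 ± 0.47, SE, edgeR adjusted p = 1.61e-06) and Cdca5 (5.96 ± 0.61, SE, edgeR adjusted p = 6.08e-06) were far steeper in WT mice than the core subunit Smc1a (1.04 ± 0.12, SE, edgeR adjusted p = 2.17e-05). Between the zones few passed. Cdkn3, the gene of a phosphatase acting on CDKs, was higher in DZ of both genotypes (0.80 ± 0.15, SE, edgeR adjusted p = 0.00343 in aPIK3CD and 0.88 ± 0.17, SE, edgeR adjusted p = 0.00763 in WT). In aPIK3CD mice Nek2, a centrosomal kinase gene (1.0 ± 0.17, SE, edgeR adjusted p = 0.00233), E2f2 (0.82 ± 0.16, SE, edgeR adjusted p = 0.00585), Cdkn2d (0.73 ± 0.14, SE, edgeR adjusted p = 0.00519) and the cohesin release factor Wapl (0.43 ± 0.12, SE, edgeR adjusted p = 0.0484) were higher in DZ. In WT mice the kinetochore scaffold Knl1 (0.55 ± 0.13, SE, edgeR adjusted p = 0.0272) and the polymerase gene Pola1 (0.47 ± 0.13, SE, edgeR adjusted p = 0.0499) were higher in DZ. Knl1 passed in 8 and Pola1 in 5 of 16 alternatives and Wapl in 7 of 17, Cdkn3 in 16 of 17 in aPIK3CD and 14 of 16 in WT mice, and Nek2, E2f2 and Cdkn2d in 16 of 17. No tested gene of these lists passed as lower in DZ.

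The condensin II genes departed from the set in plasma cells. Against naive B cells 2 of 3 passed as higher in PC of each genotype, where 26.5% of all genes did in aPIK3CD and 25.4% in WT mice. Against LZ their median log2 fold change was -0.63 in aPIK3CD and -0.31 in WT mice. Among them, Ncapg2 was higher in PC than in naive B cells in aPIK3CD mice (4.67 ± 0.60, SE, edgeR adjusted p = 4.22e-05) and in WT mice (6.35 ± 0.36, SE, edgeR adjusted p = 3.15e-09). Against LZ it was lower in aPIK3CD PC (-0.63 ± 0.17, SE, edgeR adjusted p = 0.00633) and did not pass in WT PC (-0.12 ± 0.18, SE, edgeR adjusted p = 0.59). Of the DNA replication genes, 25 of 27 were lower in PC than in LZ in aPIK3CD mice and 25 of 27 in WT mice. Against WT, aPIK3CD PC had higher Cdc16 (1.0 ± 0.19, SE, edgeR adjusted p = 0.0224) and Anapc5 (0.46 ± 0.11, SE, edgeR adjusted p = 0.045) and lower Anapc13 (-0.59 ± 0.14, SE, edgeR adjusted p = 0.0442), 3 of the 14 tested genes of the anaphase-promoting complex, which also serves cells outside mitosis, where 3.2% of all genes passed. Mcm6 (0.57 ± 0.14, SE, edgeR adjusted p = 0.0422) and Tubb4b (0.50 ± 0.12, SE, edgeR adjusted p = 0.0491) were higher and Arpp19 (-0.70 ± 0.14, SE, edgeR adjusted p = 0.0256) lower in aPIK3CD PC. None of these 6 calls held in all of 17 alternatives: Cdc16 passed in 13, Arpp19 in 9, Anapc5 in 7, Tubb4b in 5, and Anapc13 and Mcm6 in 4 each, and none passed with replicate 1 of aPIK3CD moved to WT, without WT replicate 2 or without aPIK3CD replicate 3. In DZ, LZ and naive B cells no gene of these 10 lists passed between genotypes.

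Among all other genes, those whose log2 CPM ran most like the mean of the 53 over the 31 libraries with more than 100000 counts were Kntc1 (Pearson r = 0.982), Kif18b (0.979), Pif1 (0.976), Clspn (0.976), Cks2 (0.976), Nsd2 (0.973), Spag5 (0.972), Ska1 (0.972), Parpbp (0.971) and Cenpk (0.969). The coefficients describe these libraries, which share their populations. Among germinal centre libraries of that depth alone they were lower, 0.127 for Cks2 at the low end, 0.412 for Kntc1 and 0.782 for Kif18b at the high end.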

How the data were processed

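Per the labels, RNA from 500 sorted cells was made into libraries with the SMART-Seq v4 kit. The authors deposited raw read counts per gene in 1 table of 32 libraries. The submitters' processing notes name STAR 2.4.2a, HTSeq and Picard. The genome build and the strand setting are not given in the sources used here. Rows with no gene name held 0.173% of counts. Libraries were grouped by title.

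Counts were tested with edgeR 4.0.16 (R 4.3.3, limma 3.58.1), using TMM factors, filterByExpr (minimum count 10, minimum total 15), the quasi-likelihood F test and Benjamini-Hochberg adjustment over all genes tested. Each comparison used its own 8 libraries. Interactions used all 32 libraries. A gene passed at an adjusted p below 0.05. The SE was derived from the F statistic, and levels are CPM (counts scaled to TMM-adjusted library totals). A library's total count limits the precision of low levels, so 1 count was worth 1.56 to 2.60 CPM in PC, 0.494 to 0.816 CPM in DZ (34.1 CPM in the shallow WT replicate 3), 0.504 to 1.04 CPM in LZ and 0.317 to 0.484 CPM in naive libraries. Alternatives were DESeq2 1.42.0 and its size factors, limma voom, no filter on low counts, no immunoglobulin or T cell receptor genes, thinned counts, a replicate block, a single fit and each library left out. The procedure was tested on simulated data. Reads of near-identical copies may be split, and the pseudogenes of Ccnb2 and Ccnb1 held 267 and 19 counts.

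The 53 genes and the other gene lists were chosen with earlier results of these data known. Every library is given for the 2 genes of each role with the highest mean CPM and for the 3 genes with the smallest p in each genotype comparison. The 3 genes with the highest and the lowest fold change are named in each comparison of populations, as are up to 3 genes per other list by smallest p. Other genes, such as Cdc20, Cdk1 and Pttg1, were named after their values were seen.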

Additional observations from a re-analysis of the deposited data

Results flagged for a closer look

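Within groups of 4 libraries, 240 sets of values were searched for a library far from the other 3 by Dixon's ratio, which chance passes in about 1 of 20 groups, and 23 were found. WT naive replicate 4 stood above the other WT naive libraries in the summed CPM of the 53 genes, with 1836 CPM against 1031 to 1134 CPM. The same library was the high one for Mki67 (49.0 CPM), Nusap1 (55.0), Ccnb2 (46.2), Birc5 (42.2), Ube2c (37.4), Cdca8 (27.3), Cdca3 (21.3) and Cenpf (20.5). Its total count lay within the range of its group. In aPIK3CD naive B cells, replicate 2 was the high library for Cenpf (27.6 CPM), Incenp (24.9) and Tpx2 (15.2).

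WT DZ replicate 3, with a total of 25797 counts against 1295646 to 1464876, was the low library for the summed CPM of the 7 kinetochore genes (2043 CPM), for Cenpf (476.8), Tpx2 (238) and Prc1 (136). In aPIK3CD DZ, replicate 4 was low for Cenpf (449 CPM) and Tpx2 (294). In aPIK3CD LZ, replicate 1 was high for Ccna2, with 430.3 CPM against 338 to 350.2 CPM. In aPIK3CD PC, single libraries were high for Nusap1 (replicate 2, 21.0 CPM), Kif23 (replicate 4, 23.8 CPM) and Ect2 (replicate 1, 3.12 CPM), values that rest on a few counts each.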

How the results depend on the processing

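In LZ against naive B cells, 51 of the 53 genes passed under every alternative run in both genotypes, and in PC against LZ 52 in aPIK3CD and 52 to 53 in WT mice. Between genotypes, 0 passed in DZ, LZ and naive B cells under every alternative. In PC 0 passed, but 1 passed with DESeq2 size factors, the DESeq2 Wald test or a single fit of all groups, 3 with no filter, 4 without immunoglobulin and T cell receptor genes, and 0 to 1 with 1 library left out. Between zones, 10 passed in aPIK3CD mice, against 1 in the single fit and 6 without replicate 1 of both zones, an alternative chosen after seeing the data. In WT mice 8 passed, against 3 with the DESeq2 Wald test, 14 with limma voom, 3 with the replicate block, 1 in the single fit and 1 to 10 with 1 library left out. In PC against naive B cells, 7 passed in aPIK3CD mice, against 11 with limma voom and in the single fit. In WT mice 8 passed, against 14 with limma voom, with no filter and in the single fit and 6 to 14 with 1 library left out. The interaction with population passed for 0, and for 8 with no filter. The cause was not tested.

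Fold changes of DZ over LZ near 0 changed sign. Ttk in WT mice was 0.0044 with limma voom, 0.051 with the block and -0.41 to 0.17 with 1 library left out. Bub1 was -0.012 with DESeq2 size factors, -0.076 with DESeq2, -0.024 in the single fit and -0.11 to 0.13 with 1 library left out. Aurkb was -0.034 with DESeq2, -0.051 with limma voom and -0.14 to 0.15 with 1 library left out. In aPIK3CD mice Kif15 was 0.0004 with no filter, 0.0024 in the single fit and -0.19 to 0.12 with 1 library left out, Ccna2 -0.015 after thinning and -0.022 to 0.091, and Spc24 -0.15 to 0.0043. Over 60 results, 908 of 985 alternative values kept their direction and their side of the threshold or size.

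The column names carry the same replicate number across the populations of a genotype, and whether it marks a single animal was not established. The main tests left the libraries unpaired. In no comparison did all 4 same-numbered pairs deviate together with a correlation above 0.1. In DZ against LZ of aPIK3CD mice pairs 1 and 2 did, at 0.249 and 0.230, and each of the 4 libraries correlated best with its own number. There the replicate block moved the calls to 14 of the 53 genes and 959 of all genes, against 10 and 592 without it. Apart from WT DZ replicate 3, plasma cell libraries are the shallowest, so genes at a few counts there could not be tested.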
